A study of Mus musculus with 12 samples.

Results

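The genes described here are 10 genes that mark the primitive streak and the first cells to leave it: T, Mixl1, Eomes, Gsc, Fgf8, Wnt3, Evx1, Snai1, Lhx1 and Mesp1. They were picked by symbol for their known roles, at a time when earlier results of these data were known. All 10 were found among the 24015 gene rows of each of 12 RNA-seq libraries. Each had at least 1 count somewhere, but only 7 of the 10 had enough counts to be tested. The libraries came from mouse embryoid bodies, floating aggregates in which embryonic stem cells leave the pluripotent state and start to form germ layers, and were made from total RNA. There were 4 groups of 3 libraries each: Trim33-deficient bodies on day 2.5 and on day 2, and control bodies on day 2.5 and on day 2.

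The stem cell lines came from outbred mouse embryos with floxed Trim33 on both alleles and with UbcCreERT2, a Cre recombinase that the ubiquitin C promoter drives broadly and that acts once tamoxifen is present. Cells of passages 8 to 10 were kept without feeders in LIF with 2i inhibitors, then aggregated in low-attachment dishes, and 4OH-Tamoxifen was given on day 1. The growth description gives the floxed alleles and the Cre for the lines as a whole, while the controls carry the genotype label wildtype, and it is not stated whether the controls received 4OH-Tamoxifen or how many lines were used. Trim33 itself averaged 58.3 ± 4.23 CPM (counts per gene scaled to library size) in Trim33-deficient bodies and 250 ± 12.8 CPM in control bodies on day 2.5, and 66.0 ± 4.88 CPM in Trim33-deficient bodies and 271 ± 8.55 CPM in control bodies on day 2 (SD, n = 3 each). Trim33 RNA was thus 4.28-fold lower on day 2.5 and 4.09-fold lower on day 2 and was detected in every Trim33-deficient library, and the count covers the whole gene, including any part outside the deletion. Pluripotency genes expected in early bodies (Pou5f1, Sox2, Nanog, Utf1, Sall4 and Lin28a) summed to 2601 to 2816 CPM in Trim33-deficient bodies and 2798 to 2959 CPM in control bodies on day 2.5. The sum does not show each gene: Nanog was lower, at 75.8 ± 6.54 CPM in Trim33-deficient and 182 ± 23.5 CPM in control bodies on day 2.5.

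The primitive streak is the furrow at the posterior of the gastrulating embryo through which epiblast cells pass to become mesoderm and definitive endoderm. WNT3 and NODAL signals start it, T-box and homeobox factors then mark its regions, and cells leave it after an epithelial-to-mesenchymal transition for which SNAI1 represses the E-cadherin gene. In embryoid bodies the same genes come on as the epiblast-like cells start to form mesendoderm. TRIM33 (also called TIF1-gamma) is a chromatin protein that binds modified histone H3 and associates with SMAD2 and SMAD3, the transcription factors that NODAL activates, and Gsc and Mixl1 are known as genes through which this was studied in mouse embryonic stem cells.

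The promoters of T, Eomes, Gsc and Snai1, 4 of the 5 members called between genotypes on day 2.5 (the other is Fgf8), are shown first from RefSeq, as the 250 bases before the gene start on the GRCm38.p6 assembly, 5′ to 3′ on the gene's strand. Capitals mark a CTTTGA (the core that TCF and LEF factors bind at the end of WNT signalling) or a CACCTG (an E-box that SNAI1 and ZEB factors bind) on either strand. None of the 4 held the SMAD-type CAGAC, the FOXH1-type AATNNACA or the T-box core TCACACC.
T, chr17:8434173-8434422, plus strand: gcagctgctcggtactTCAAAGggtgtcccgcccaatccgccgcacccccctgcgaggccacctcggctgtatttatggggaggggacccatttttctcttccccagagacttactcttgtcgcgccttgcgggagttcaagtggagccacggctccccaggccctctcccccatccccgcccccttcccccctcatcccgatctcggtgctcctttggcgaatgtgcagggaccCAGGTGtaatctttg
Eomes, chr9:118477939-118478188, plus strand: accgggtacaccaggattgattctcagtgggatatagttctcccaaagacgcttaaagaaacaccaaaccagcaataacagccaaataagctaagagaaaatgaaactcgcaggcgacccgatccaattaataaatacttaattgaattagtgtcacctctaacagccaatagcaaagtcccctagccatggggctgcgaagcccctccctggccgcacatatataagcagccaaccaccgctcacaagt
Gsc, chr12:104473237-104473486, minus strand: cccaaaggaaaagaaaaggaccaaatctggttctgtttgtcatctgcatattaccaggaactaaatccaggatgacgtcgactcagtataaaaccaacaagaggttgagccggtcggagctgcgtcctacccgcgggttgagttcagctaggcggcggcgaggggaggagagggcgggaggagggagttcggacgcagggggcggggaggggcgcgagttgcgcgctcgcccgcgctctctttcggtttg
Snai1, chr2:167537945-167538194, plus strand: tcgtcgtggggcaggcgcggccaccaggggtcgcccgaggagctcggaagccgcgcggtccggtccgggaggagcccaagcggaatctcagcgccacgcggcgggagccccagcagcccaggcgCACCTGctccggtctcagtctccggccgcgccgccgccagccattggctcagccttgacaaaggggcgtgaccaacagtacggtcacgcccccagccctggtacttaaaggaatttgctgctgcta
The T promoter held 1 CTTTGA, which starts at position -234 from the gene start, and 1 CACCTG, at position -15. The Snai1 promoter held 1 CACCTG, at position -126. Over the 8 members with a promoter in the table, 2 held CTTTGA and 4 held CACCTG, while 13.8% and 17.2% of all 32851 promoters of that length did so. CAGAC, which 42.2% of all promoters held, was found in 4 of the 8: Wnt3, Evx1, Lhx1 and Mesp1. AATNNACA and TCACACC, held by 10.9% and 3.33% of all promoters, were found in none of the 8. The general E-box CANNTG, of which CACCTG is one form, was found in 5 of the 8 (T, Gsc, Evx1, Snai1 and Mesp1) and in 66.2% of all promoters. These are letter matches in a short window, and binding was not measured here.

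The members were low, and several were close to the limit of what the libraries could count. A library held 10066338 to 16529627 counts assigned to genes, so that 3 counts, the most that a count of 0 allows, stood for 0.179 to 0.318 CPM. Eomes had 114 to 402 counts per library, Fgf8 30 to 223, Wnt3 54 to 200 and Snai1 34 to 184. T had 10 to 48 counts and Mixl1 15 to 38, and Gsc had only 1 to 23. Evx1 (0 to 13 counts), Lhx1 (0 to 7) and Mesp1 (0 to 4) fell under the filter for low genes, which asks for about 0.748 CPM in at least 3 libraries, and were not tested. Gsc passed it only through libraries in which it was high: all 3 control libraries of day 2.5 and 1 control library of day 2, and no Trim33-deficient library. A difference between genotypes for Gsc was therefore close to a condition of its being tested. The other 6 tested members passed in libraries of all 4 groups. In whole bodies, fewer cells that express a gene and less RNA per cell cannot be told apart.

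**Figure D1:**
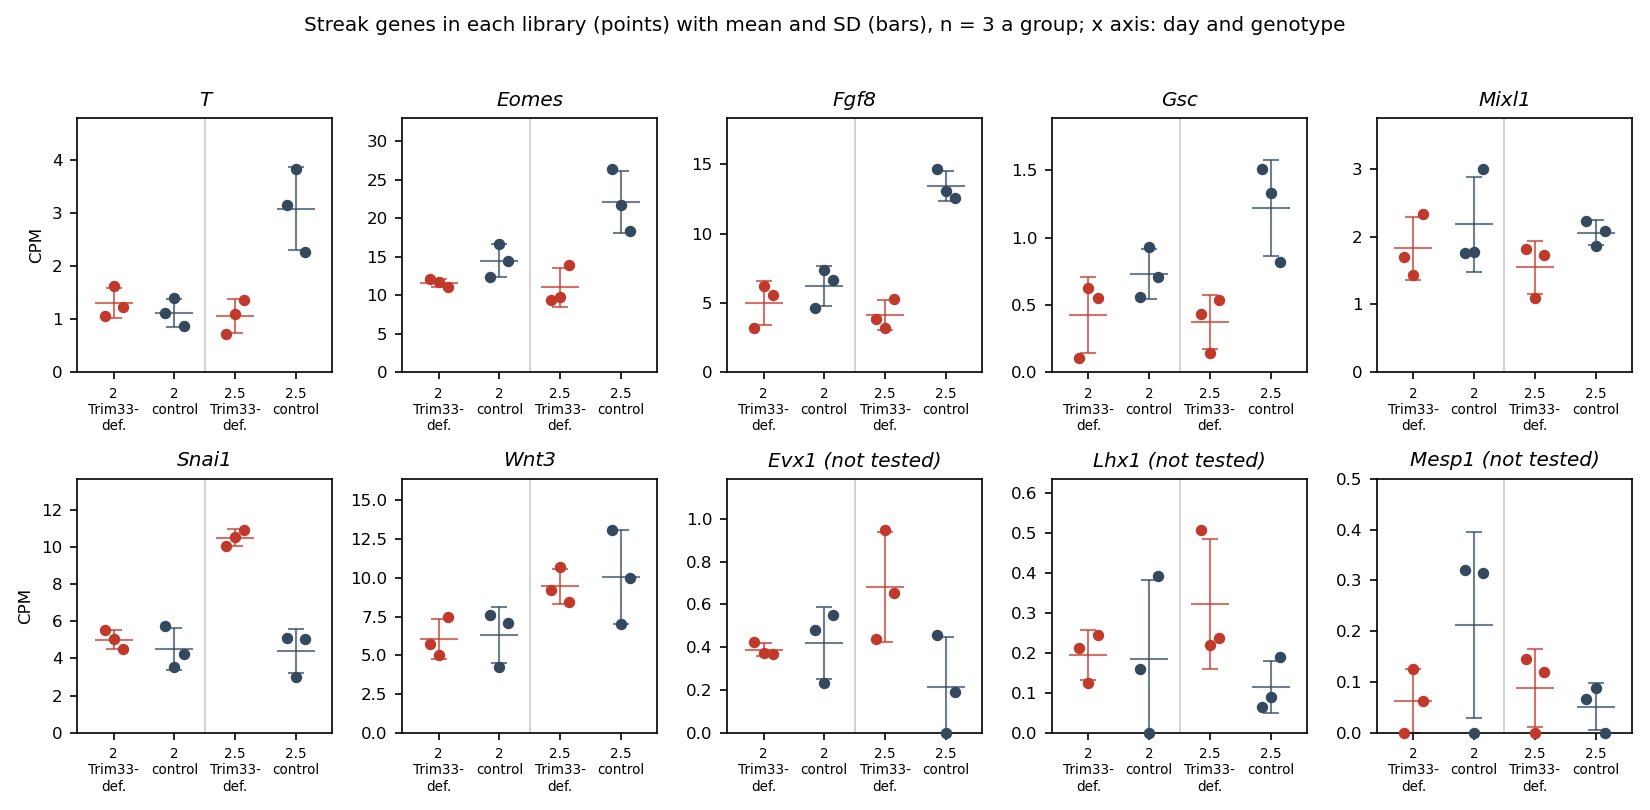
Level of each of the 10 genes in every library, in CPM on a linear axis that starts at 0 and differs between panels, with Trim33-deficient libraries left of control libraries on each day. Points are libraries and bars are group means with SD (n = 3). T, Eomes, Gsc and Fgf8 have their highest group mean in the day 2.5 control libraries, and Snai1 has its highest group mean in the day 2.5 Trim33-deficient libraries.

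On day 2.5, 4 of the streak genes had less RNA in Trim33-deficient bodies than in control bodies and 1 had more. T, Eomes and Gsc, transcription factors of the streak, and Fgf8, a streak ligand, were about 2 to 3.2 times lower. Snai1, the factor of epithelial-to-mesenchymal transition, was 2.35 times higher. Mixl1 and Wnt3 did not pass the test, and Evx1, Lhx1 and Mesp1 were too low to test. Of the 6 members that passed the filter in every group, 1 rose and 3 fell, in a comparison in which 42.8% of the 14356 tested genes were called (22% rose and 20.7% fell), so a call as such was common there. The median log2 difference of these 6 was -0.70 (-0.99 with Gsc), against -0.01 over all tested genes. All p-values below are from edgeR's quasi-likelihood test with Benjamini-Hochberg adjustment over all tested genes, and a gene is called where the adjusted p is under 0.05.

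T encodes Brachyury, the T-box factor of the whole streak and later of the notochord. On day 2.5 its level was 0.727, 1.10 and 1.37 CPM (10, 15 and 23 counts) in Trim33-deficient bodies, against 3.15, 3.82 and 2.27 CPM (48, 43 and 36 counts) in control bodies. Every Trim33-deficient library was below every control library. The difference was 2.79-fold (log2 -1.48 ± 0.28 SE, adjusted p = 0.000565). On day 2 the level was 1.06, 1.63 and 1.23 CPM in Trim33-deficient bodies, against 1.12, 1.39 and 0.866 CPM in control bodies. These ranges overlapped, and the log2 difference of 0.24 ± 0.33 (95% interval -0.45 to 0.93) did not pass (adjusted p = 0.699).

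Eomes, a T-box factor needed for definitive endoderm and for the earliest mesoderm, was the most abundant member by counts. On day 2.5 it stood at 9.38, 9.80 and 14.0 CPM in Trim33-deficient bodies, against 26.4, 21.7 and 18.3 CPM in control bodies. The groups did not overlap, and the level was 1.99-fold lower in Trim33-deficient bodies (log2 -0.99 ± 0.16, adjusted p = 0.000183). On day 2 it stood at 12.1, 11.8 and 11.1 CPM in Trim33-deficient bodies, against 12.4, 16.6 and 14.5 CPM in control bodies. Here too all 3 Trim33-deficient libraries were the lower ones, but the nearest values were close and the log2 difference of -0.32 ± 0.17 (interval -0.68 to 0.03) did not pass (adjusted p = 0.249). The Eomes locus overlaps Gm33460 on the opposite strand, and a strand setting for counting is not given in the sources used here.

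Gsc encodes Goosecoid, a homeobox repressor of the anterior streak and the organizer. On day 2.5 it had 6, 2 and 9 counts (0.436, 0.146 and 0.536 CPM) in Trim33-deficient bodies, against 23, 15 and 13 counts (1.51, 1.33 and 0.819 CPM) in control bodies. The groups did not overlap, at a few counts per library. The fitted difference was 3.11-fold lower (log2 -1.63 ± 0.45, interval -2.60 to -0.67, adjusted p = 0.0087). On day 2 it had 1, 10 and 9 counts in Trim33-deficient bodies, against 7, 12 and 9 counts in control bodies. The ranges overlapped and the log2 difference of -0.62 ± 0.49 did not pass (adjusted p = 0.473).

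Mixl1 encodes a paired-type homeobox factor of mesendoderm. On day 2.5 it had 25, 15 and 29 counts (1.82, 1.10 and 1.73 CPM) in Trim33-deficient bodies, against 34, 21 and 33 counts (2.23, 1.87 and 2.08 CPM) in control bodies. The Trim33-deficient libraries were the lower ones, without overlap, by a small margin. The log2 difference was -0.41 ± 0.28, with an interval of -1.003 to 0.18, and did not pass (adjusted p = 0.253). On day 2 the means were 1.82 ± 0.462 CPM in Trim33-deficient bodies and 2.18 ± 0.704 CPM in control bodies (SD, n = 3 each), with overlapping libraries (log2 -0.24 ± 0.28, adjusted p = 0.637).

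Of the ligands, Fgf8 was called on day 2.5 and Wnt3 was not. FGF8 is the fibroblast growth factor that cells need in order to move away from the streak. Its RNA was at 3.86, 3.22 and 5.30 CPM (53, 44 and 89 counts) in Trim33-deficient bodies, against 14.6, 13.1 and 12.6 CPM (223, 147 and 200 counts) in control bodies. The groups were far apart, with the highest Trim33-deficient library well under the lowest control library. Fgf8 was 3.22-fold lower (log2 -1.69 ± 0.22, interval -2.15 to -1.23, adjusted p = 2.52e-05). On day 2 the libraries overlapped, at 3.18, 6.19 and 5.59 CPM in Trim33-deficient bodies against 4.64, 7.35 and 6.69 CPM in control bodies (log2 -0.27 ± 0.23, adjusted p = 0.499).

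WNT3 is the ligand without which no streak forms in the mouse. On day 2.5 Wnt3 was at 9.24, 10.7 and 8.45 CPM in Trim33-deficient bodies, against 13.1, 7.02 and 10.01 CPM in control bodies. The Trim33-deficient libraries lay within the range of the control libraries. The log2 difference of -0.11 ± 0.23 had an interval of -0.59 to 0.38, which leaves room for a moderate change in either direction (adjusted p = 0.732). On day 2 the means were 6.08 ± 1.28 CPM in Trim33-deficient bodies and 6.31 ± 1.80 CPM in control bodies (SD, n = 3 each; log2 -0.05 ± 0.25, adjusted p = 0.935).

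Snai1, the transition factor that represses E-cadherin, was the one tested member called higher in Trim33-deficient bodies. On day 2.5 its level was 10.04, 10.53 and 10.95 CPM (138, 144 and 184 counts) in Trim33-deficient bodies, against 5.12, 3.02 and 5.04 CPM (78, 34 and 80 counts) in control bodies. The 3 Trim33-deficient libraries were close together and all above the control libraries. The difference was 2.35-fold (log2 1.23 ± 0.19, interval 0.84 to 1.63, adjusted p = 8.64e-05). On day 2 the libraries overlapped, at 5.52, 5.06 and 4.49 CPM in Trim33-deficient bodies against 5.77, 3.56 and 4.25 CPM in control bodies (log2 0.14 ± 0.20, adjusted p = 0.725).

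**Figure D2:**
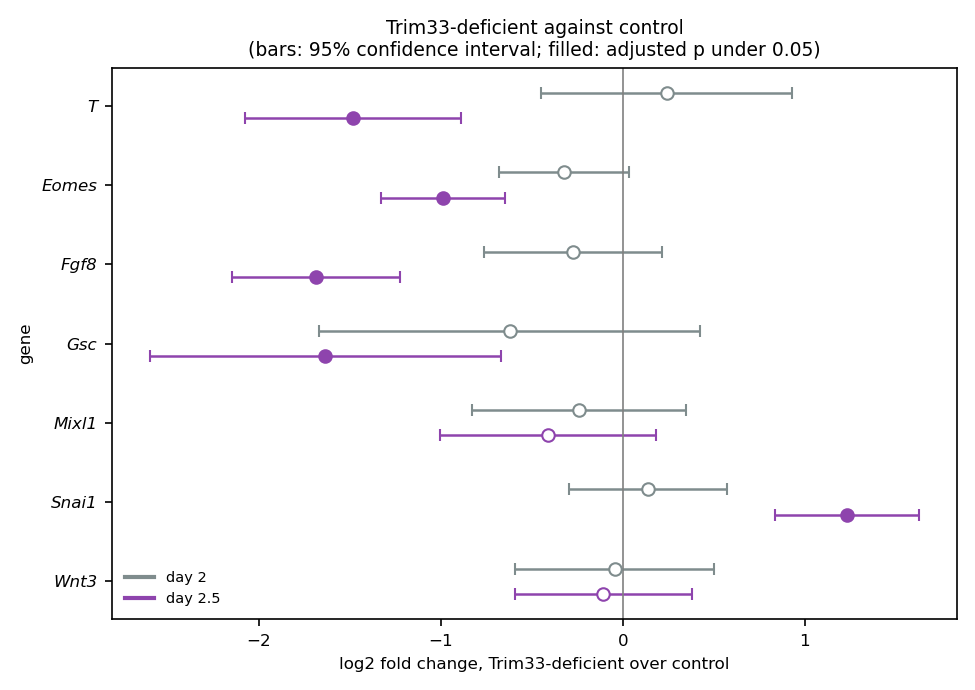
Log2 difference of Trim33-deficient against control bodies for the 7 tested genes on day 2.5 and on day 2, with 95% intervals from edgeR and a line at 0. On day 2.5 the intervals of T, Eomes, Gsc and Fgf8 lie below 0 and that of Snai1 above it, and on day 2 every interval includes 0.

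On day 2 no tested member was called: 0 of 7 by edgeR and 0 of 7 at an unadjusted p under 0.05. By edgeR 9.84% of all tested genes were called on that day (5.94% rose and 3.9% fell). DESeq2 called no member either, and it gave Gsc no adjusted p there. The median over the 7 was -0.24, against -0.00 over all tested genes. Of the 7, Eomes alone had groups that did not overlap on that day, a pattern that 29.4% of all tested genes showed (14.9% higher and 14.5% lower). On day 2.5, 6 of the 7 did not overlap (1 higher and 5 lower), against 53% of all tested genes (26.7% higher and 26.2% lower). That count includes Gsc, with the limit given above.

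The 3 untested members are given by their counts. Evx1, a homeobox factor of the posterior streak, had 6, 13 and 11 counts in Trim33-deficient bodies on day 2.5, against 7, 0 and 3 counts in control bodies. These ranges overlapped. The sums were 30 (exact Poisson 95% interval 20.2 to 42.8) in Trim33-deficient bodies and 10 (4.80 to 18.4) in control bodies on day 2.5, and 16 (9.15 to 26.0) in each genotype on day 2. The intervals cover counting error only, and Evx1 overlaps Evx1os on the opposite strand. With the filter for low genes removed, the fitted log2 difference of Evx1 on day 2.5 was 1.4998 ± 0.58 and did not pass (adjusted p = 0.0541).

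Lhx1, a LIM homeobox factor of the organizer and the anterior visceral endoderm, had 7, 3 and 4 counts in Trim33-deficient bodies and 1, 1 and 3 counts in control bodies on day 2.5. In CPM the lowest Trim33-deficient library, at 0.219, was just above the highest control library, at 0.189, each with 3 counts. The sums were 14 (7.65 to 23.5) in Trim33-deficient bodies and 5 (1.62 to 11.7) in control bodies, with overlapping intervals. Mesp1, the basic helix-loop-helix factor of the first cardiac mesoderm, had 2, 0 and 2 counts in Trim33-deficient bodies and 1, 1 and 0 counts in control bodies on day 2.5. On day 2 it had 0, 2 and 1 counts in Trim33-deficient bodies and 4, 0 and 4 counts in control bodies. At 10 of 12 libraries with at most 3 counts, Mesp1 was very low in all groups, and a ratio between genotypes was not resolved at this depth.

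Between day 2 and day 2.5, T, Fgf8 and Eomes rose in control bodies and Snai1 rose in Trim33-deficient bodies. In Trim33-deficient bodies T averaged 1.06 ± 0.322 CPM on day 2.5 and 1.31 ± 0.290 CPM on day 2 (log2 -0.30 ± 0.32, adjusted p = 0.561). In control bodies it averaged 3.08 ± 0.779 CPM on day 2.5 and 1.13 ± 0.263 CPM on day 2 (SD, n = 3 in each group), a 2.68-fold rise (log2 1.42 ± 0.29, adjusted p = 0.00359). All 3 control libraries of day 2.5 were above all 3 of day 2. For Fgf8 the means in Trim33-deficient bodies were 4.12 ± 1.07 CPM on day 2.5 and 4.99 ± 1.59 CPM on day 2 (log2 -0.31 ± 0.24, adjusted p = 0.413). In control bodies they were 13.4 ± 1.07 CPM on day 2.5 and 6.23 ± 1.41 CPM on day 2, a 2.15-fold rise (log2 1.11 ± 0.21, adjusted p = 0.00257). The lowest day 2.5 control library, at 12.6 CPM, was above the highest day 2 control library, at 7.35 CPM.

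Eomes averaged 11.1 ± 2.55 CPM on day 2.5 and 11.6 ± 0.524 CPM on day 2 in Trim33-deficient bodies (log2 -0.06 ± 0.17, interval -0.42 to 0.30, adjusted p = 0.857). In control bodies it averaged 22.1 ± 4.05 CPM on day 2.5 and 14.5 ± 2.11 CPM on day 2, a 1.52-fold rise (log2 0.61 ± 0.16, adjusted p = 0.0168). That call for Eomes was lost without control replicate 1 of day 2 (adjusted p = 0.0661), without control replicate 3 of day 2 (0.0643) and without control replicate 1 of day 2.5 (0.0636). Snai1 averaged 10.5 ± 0.457 CPM on day 2.5 and 5.02 ± 0.516 CPM on day 2 in Trim33-deficient bodies, a 2.11-fold rise without overlap (log2 1.08 ± 0.18, adjusted p = 0.00102). In control bodies it averaged 4.39 ± 1.19 CPM on day 2.5 and 4.52 ± 1.13 CPM on day 2 (log2 -0.02 ± 0.21, interval -0.45 to 0.42, adjusted p = 0.970).

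Wnt3 had the higher mean on day 2.5 in both genotypes and passed the test in neither. It averaged 9.46 ± 1.13 CPM on day 2.5 and 6.08 ± 1.28 CPM on day 2 in Trim33-deficient bodies, without overlap (log2 0.63 ± 0.24, adjusted p = 0.0933). In control bodies it averaged 10.1 ± 3.05 CPM on day 2.5 and 6.31 ± 1.80 CPM on day 2, with overlap (log2 0.69 ± 0.24, adjusted p = 0.0667). Both p-values lie near the threshold, and some other fits called Wnt3. Without control replicate 2 of day 2.5 it passed in Trim33-deficient bodies (adjusted p = 0.0429) and in control bodies (0.0163), and without control replicate 2 of day 2 it passed in Trim33-deficient bodies (0.0413). Gsc and Mixl1 passed in neither genotype: for Gsc the log2 change was -0.30 ± 0.55 in Trim33-deficient bodies and 0.71 ± 0.41 in control bodies, and for Mixl1 it was -0.24 ± 0.29 in Trim33-deficient bodies and -0.07 ± 0.27 in control bodies. Time calls covered 16% of all tested genes in Trim33-deficient bodies (9.09% rose and 6.93% fell), where 1 member rose, and 16.1% in control bodies (8.2% rose and 7.91% fell), where 3 members rose. The days did not overlap for 2 of the 7 in Trim33-deficient bodies (Snai1 and Wnt3, both higher on day 2.5), against 38.7% of all tested genes (19.4% higher and 19.3% lower). They did not overlap for 3 of the 7 in control bodies (T, Eomes and Fgf8, all higher on day 2.5), against 31.2% (16.2% higher and 15% lower).

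**Figure D3:**
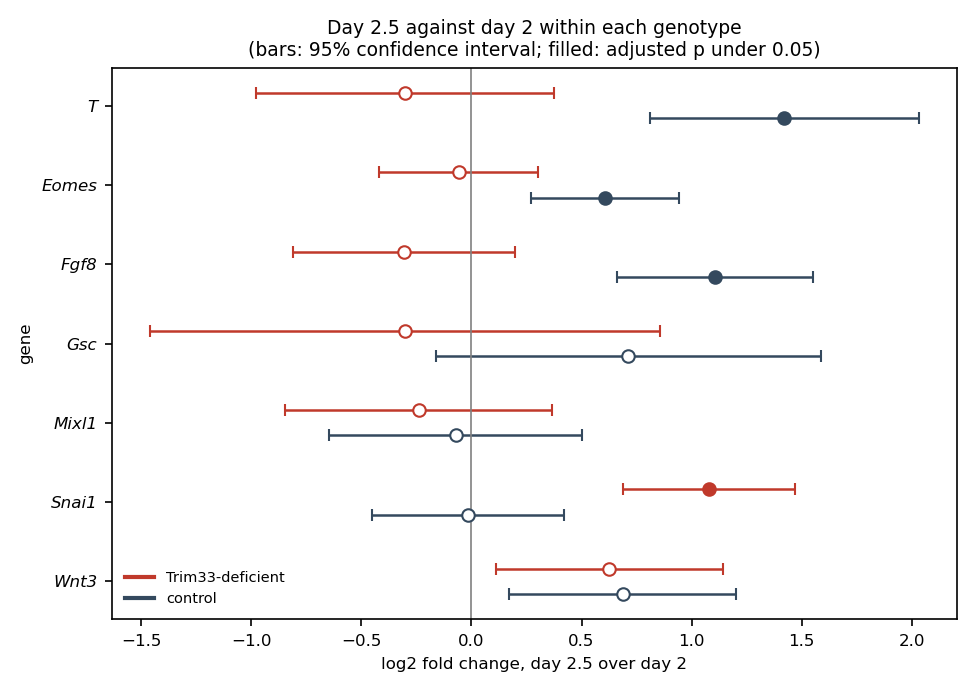
Log2 change of day 2.5 against day 2 for the 7 tested genes in Trim33-deficient and in control bodies, with 95% intervals from edgeR and a line at 0. The intervals of T, Fgf8 and Eomes lie above 0 in control bodies and include 0 in Trim33-deficient bodies, the interval of Snai1 lies above 0 in Trim33-deficient bodies, and Wnt3 lies above 0 in both although it did not pass after adjustment.

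Whether the change over time itself differed between genotypes was tested as an interaction, which is the log2 change in Trim33-deficient bodies minus that in control bodies. It was called for T (-1.72 ± 0.43, adjusted p = 0.0373), Fgf8 (-1.41 ± 0.32, adjusted p = 0.0252) and Snai1 (1.09 ± 0.28, adjusted p = 0.0385), in a test that called 4.01% of all tested genes (2.77% above 0 and 1.24% below). It was not called for Eomes (-0.67 ± 0.23, interval -1.16 to -0.17, adjusted p = 0.116), Gsc (-1.01 ± 0.69, adjusted p = 0.426), Mixl1 (-0.17 ± 0.39, adjusted p = 0.850) or Wnt3 (-0.06 ± 0.34, interval -0.79 to 0.67, adjusted p = 0.946). The 3 calls are close to the threshold. The call for T was lost without any 1 of 7 libraries (control replicates 1 and 3 and Trim33-deficient replicates 2 and 3 of day 2, and control replicate 2 and Trim33-deficient replicates 1 and 2 of day 2.5), with adjusted p of 0.02 to 0.135 over all 12 omissions. That for Fgf8 was lost without any 1 of 6 (control replicate 3 and Trim33-deficient replicates 2 and 3 of day 2, and control replicate 3 and Trim33-deficient replicates 1 and 2 of day 2.5; 0.0044 to 0.0958), and that for Snai1 without any 1 of 9 (all but Trim33-deficient replicate 1 and control replicate 2 of day 2 and control replicate 1 of day 2.5; 0.0125 to 0.114). Eomes became a call without Trim33-deficient replicate 3 of day 2.5 (adjusted p = 0.0319).

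Across the 12 libraries, log2 CPM of T, Eomes, Gsc and Fgf8 went up and down together, and Snai1 was negatively correlated with them. Over time within a genotype, no opposite change of Snai1 and these genes was called. These correlations are a description over 12 libraries that share the 4 groups and their depths. Pearson's r was 0.913 between Eomes and Fgf8, 0.907 between Gsc and Fgf8, 0.857 between T and Fgf8, 0.850 between T and Eomes, 0.794 between Eomes and Gsc and 0.688 between T and Gsc. Snai1 had r of -0.495 with T, -0.570 with Eomes, -0.578 with Gsc and -0.610 with Fgf8. Wnt3 followed neither set closely, with r of 0.0755 against Gsc, of 0.182 to 0.197 against T, Eomes and Fgf8 and of 0.472 against Snai1. Mixl1 had r of 0.0695 with T, 0.415 with Eomes, 0.522 with Gsc, 0.472 with Fgf8, 0.0718 with Wnt3 and -0.487 with Snai1. Of about 13485 other genes, those whose pattern was most like T were Sfrp2 (0.953), Tgfa (0.940) and Moxd1 (0.939). Those most like Eomes were Tmed10 (0.975), Rftn1 (0.946) and Zbtb39 (0.938), and those most like Fgf8 were Fabp5 (0.977), Nr6a1 (0.960) and Tmed10 (0.959). The pattern of Snai1 was most like that of Ptgr1 (0.984), 1500009L16Rik (0.980) and Csrnp1 (0.975), and that of Wnt3 most like that of Zeb2 (0.962), Fzd10 (0.957) and Pdia3 (0.943). The nearest were Strn3 (0.940), Gmfb (0.913) and Sirt1 (0.912) for Gsc, and Mettl10 (0.849), Copz1 (0.846) and Cinp (0.830) for Mixl1.

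The signals upstream of the streak and the other genes of streak and nascent mesoderm did not move in 1 direction on day 2.5. The counts of this and the next 3 lists stand beside the 42.8% of all tested genes called in this comparison (22% rose and 20.7% fell), and nothing is read from them about the lists. Of 21 genes for NODAL, WNT, BMP and FGF signals and their receptors and effectors, 4 rose, 9 fell and 8 did not pass, so that 61.9% were called (median log2 -0.18). Nodal, the ligand of the streak, was higher, at 198 ± 2.19 CPM in Trim33-deficient bodies against 132 ± 20.8 CPM in control bodies (log2 0.58 ± 0.09, adjusted p = 0.000308; SD, n = 3 each). The others with the smallest p in that list were lower. Tcf7l1, a TCF repressor of WNT targets, was at 108 ± 19.4 CPM in Trim33-deficient bodies and 182 ± 9.95 CPM in control bodies (log2 -0.75 ± 0.10, adjusted p = 9.15e-05). The receptor genes Fgfr1 (log2 -0.27 ± 0.04, adjusted p = 0.000159) and Bmpr1a (-0.31 ± 0.05, adjusted p = 0.000243) fell by less.

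Of 29 tested genes among 35 further streak and nascent mesoderm genes, 5 rose, 9 fell and 15 did not pass, so that 48.3% were called (median log2 -0.03). Of these, 2 that fell (Nkx1-2 and Rspo3) passed the filter for low genes through control libraries only, as Gsc did. Among the 27 others 5 rose and 7 fell. Fgf18, 1 of those that rose, reached the filter level in 1 control library of day 2 and in 0 of day 2.5. Dll1, a Notch ligand of nascent paraxial mesoderm, was at 96.4 ± 22.1 CPM in Trim33-deficient bodies and 18.5 ± 2.61 CPM in control bodies, 5.17-fold higher (log2 2.37 ± 0.16, adjusted p = 1.1e-06). Chrd, a BMP antagonist of the organizer, was also higher, at 16.2 ± 1.81 CPM in Trim33-deficient bodies against 6.88 ± 1.22 CPM in control bodies (1.22 ± 0.15, adjusted p = 1.62e-05). Nkx1-2, a homeobox gene of the caudal streak and epiblast, was lower, at 0.358 ± 0.121 CPM in Trim33-deficient bodies against 1.31 ± 0.631 CPM in control bodies (-1.88 ± 0.41, adjusted p = 0.00172). Fgf5, an epiblast ligand, was lower too (-0.56 ± 0.09, adjusted p = 0.000159). Over time, 4 of the 29 rose and 1 fell in Trim33-deficient bodies, where 16% of all tested genes were called. In control bodies, where 16.1% of all tested genes were called, 7 rose and 1 fell. There 3 rose without control replicate 3 of day 2 or without control replicate 1 of day 2.5. In Trim33-deficient bodies 2 rose without Trim33-deficient replicate 2 of day 2.

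Of the genes of later mesoderm and endoderm, 13 were tested on day 2.5. Of these 13, among 17 found in the files, 7 rose, 1 fell and 5 did not pass, so that 61.5% were called (median log2 0.57). Of these, 2 that rose (Hand1 and Sox17) passed the filter for low genes through Trim33-deficient libraries only, so that a difference was close to a condition of their being tested. Among the 11 others 5 rose and 1 fell. Gata6, 1 of those that rose, reached the filter level in 1 control library of day 2 and in 0 of day 2.5. A similar limit therefore holds for it. Hand1, a factor of lateral and extraembryonic mesoderm, was at 1.61 ± 0.11 CPM in Trim33-deficient bodies against 0.581 ± 0.135 CPM in control bodies (1.49 ± 0.31, adjusted p = 0.00129). Sox17, a factor of definitive and extraembryonic endoderm, was at 1.02 ± 0.266 CPM in Trim33-deficient bodies against 0.283 ± 0.103 CPM in control bodies (1.84 ± 0.44, adjusted p = 0.00337). Tbx20, a T-box factor of heart and lateral mesoderm, was at 5.47 ± 0.33 CPM in Trim33-deficient bodies against 2.70 ± 0.484 CPM in control bodies (1.03 ± 0.18, adjusted p = 0.000238).

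Of 17 genes of epithelial-to-mesenchymal transition beside Snai1, 7 rose, 4 fell and 6 did not pass on day 2.5, so that 64.7% were called (median log2 0.02). Fn1, which encodes the matrix protein fibronectin, was at 642 ± 30.2 CPM in Trim33-deficient bodies against 305 ± 39.3 CPM in control bodies (1.07 ± 0.12, adjusted p = 2.88e-05). Cdh2, encoding N-cadherin, which mesoderm cells take on, was at 15.9 ± 2.81 CPM in Trim33-deficient bodies against 8.62 ± 1.51 CPM in control bodies (0.87 ± 0.15, adjusted p = 0.000252), and it also rose on day 2 (0.72, adjusted p = 0.0097). Grhl2, a factor that maintains epithelial genes, was higher as well, at 143 ± 3.67 CPM in Trim33-deficient bodies against 98.9 ± 7.97 CPM in control bodies (0.53 ± 0.07, adjusted p = 1.5e-05). Mmp2, a matrix protease, was lower, at 47.4 ± 2.71 CPM in Trim33-deficient bodies against 70.3 ± 4.50 CPM in control bodies (-0.57 ± 0.07, adjusted p = 2.32e-05).

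**Figure D4:**
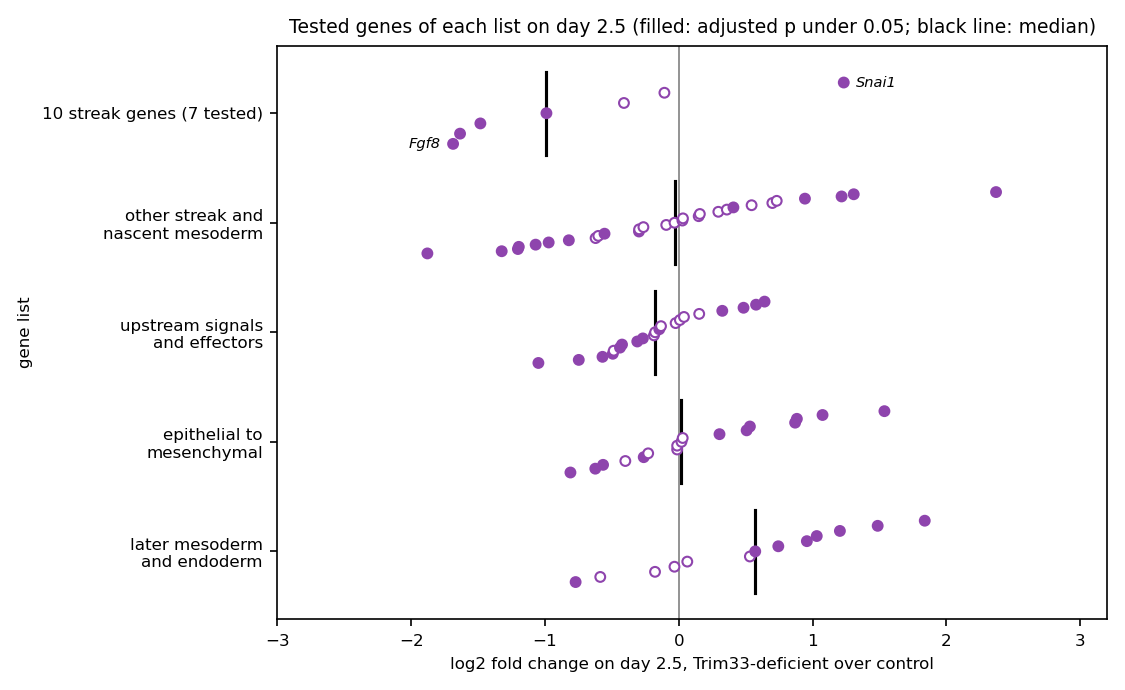
Log2 difference of Trim33-deficient against control bodies on day 2.5 for the 7 tested streak genes (top row) and for each tested gene of the 4 other lists, with a point per gene, filled where the gene was called, and a black line at each median. The lists of upstream signals, of other streak and nascent mesoderm genes and of epithelial-to-mesenchymal transition spread to both sides of 0, with medians of -0.18, -0.03 and 0.02, and the later mesoderm and endoderm list has a median of 0.57.

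Markers of other cell states also differed between genotypes, on day 2.5 and for some on day 2. None of the 7 tested members was called on day 2. Of the 29 tested genes in the list of other streak and nascent mesoderm genes, 2 rose and 1 fell on that day. Dll1 (log2 0.84, adjusted p = 0.00824) and Chrd (0.89, adjusted p = 0.00208) were higher, and Dll3 (-0.58, adjusted p = 0.0242) was lower. The fall was lost when certain single libraries were left out. The called counts that follow stand beside 42.8% of all tested genes called on day 2.5 and 9.84% on day 2. Nothing is read from counts near those shares. All 9 genes of naive pluripotency rose on day 2.5, with a summed level of 398 to 517 CPM in Trim33-deficient libraries and 116 to 136 CPM in control libraries. Of 8 genes of the primed, epiblast-like state, 1 rose and 6 fell, at 2407 to 3104 CPM in Trim33-deficient against 4045 to 4686 CPM in control libraries. Most of that sum was Dnmt3b, at 1884 CPM in Trim33-deficient and 3211 CPM in control bodies (means of day 2.5). On day 2, 5 of the 9 naive genes rose (303 to 434 CPM in Trim33-deficient against 183 to 201 CPM in control libraries) and 3 of the 8 primed genes fell (3327 to 3863 CPM in Trim33-deficient against 4530 to 5063 CPM in control libraries). These day 2 counts depended on single libraries: 3 naive genes rose with control replicate 3 left out, and the primed genes that fell numbered 0 with control replicate 3 or Trim33-deficient replicate 1 left out and 1 with control replicate 1 or 2 left out. Of 10 tested trophoblast genes 6 rose on day 2.5, but the sums of the list overlapped (133 to 172 CPM in Trim33-deficient against 82.2 to 150 CPM in control libraries) and Elf5 was under 1 CPM in every library. Krt18, the most abundant gene of that list, was not called, at 50.1 ± 14.6 CPM in Trim33-deficient and 66.7 ± 32.2 CPM in control bodies. Of 9 tested genes of visceral and primitive endoderm, where Eomes, Lhx1 and Sox17 are also active, 4 rose and 2 fell (38.1 to 42.1 CPM in Trim33-deficient against 40.6 to 51.4 CPM in control libraries), and Ttr, Afp, Apoa1 and Sox7 were under 1 CPM in every library. Hand1 among the trophoblast genes and Sox17 and Hnf4a among the endoderm genes, all counted as higher, passed the filter for low genes through Trim33-deficient libraries only. Gata6 among the endoderm genes, also counted as higher, reached the filter level in 1 control library of day 2 and in 0 of day 2.5. With replicate 1 of either genotype of day 2.5 left out, 2 of these endoderm genes rose and 1 fell. Reads of Rn45s, a ribosomal RNA gene, took 7.87% of assigned counts in Trim33-deficient replicate 1 of day 2 and 11.9% in control replicate 2 of day 2.5, against 0.609% to 1.67% in the others. The part of these cell states in the streak results was not tested, and without the 2 libraries rich in Rn45s the 5 calls on day 2.5 stood.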

How the data were processed

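The files hold raw read counts per gene symbol, 1 file per library, as deposited by the authors. STAR, HTSeq and DESeq and the mm9 build are named in the submitters' processing notes, and without versions or a strand setting. HTSeq's summary lines, left out of all totals, held 56.1% to 60.7% of the reads, nearly all without a feature. In 1 library 27 symbols that a spreadsheet had turned into dates were restored. Counts were scaled by TMM and filtered with filterByExpr, and 14356 genes were tested with edgeR 4.0.16 (robust quasi-likelihood fit of 4 group means over 12 libraries, R 4.3.3). CPM are counts over the TMM library size. The fit was checked on simulated counts. Alternatives were other scalings and filters, DESeq2 1.42.0, replicate blocks and omitted libraries. The 10 genes and all lists were chosen with earlier results of these data known. All members are named, and of each other list the 4 genes with the smallest p on day 2.5, of which 1 is not reported here. Replicates are separate libraries whose culture origin is stated only in part, so the p-values rest on how far these libraries spread, which may be technical. Promoters come from RefSeq, GRCm38.p6, and antisense neighbours from GENCODE M21.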

Additional observations from a re-analysis of the deposited data

Results flagged for a closer look

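For 3 streak genes the change between day 2 and day 2.5 differed between genotypes by edgeR's test of the difference itself: log2 -1.72 for T, -1.41 for Fgf8 and 1.09 for Snai1, each as the change in Trim33-deficient bodies minus that in control bodies. Each of the 3 calls was lost when certain single libraries were left out, with adjusted p of up to 0.135 for T, 0.0958 for Fgf8 and 0.114 for Snai1, while the direction stayed.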

How the results depend on the processing

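Of 35 log2 differences (7 genes in 5 comparisons), 23 kept their direction under every alternative run, and 8 of the 12 that were called kept their call wherever they were tested: T, Eomes, Gsc, Fgf8 and Snai1 between genotypes on day 2.5, Snai1 over time in Trim33-deficient bodies, and T and Fgf8 over time in control bodies. Gsc could not be tested with a filter of 1 CPM, which left 4 calls in place of 5 on day 2.5. It passed the main filter through control libraries only. Its kept call and its part in the day 2.5 counts carry that limit. Leaving out 1 library at a time gave 0 calls on day 2 each time, 5 on day 2.5 each time, 1 to 2 over time in Trim33-deficient bodies, 2 to 4 in control bodies and 0 to 3 for the interaction. Over time in Trim33-deficient bodies, Wnt3 was added as a call, for 2 in all, when only the libraries compared were fitted (adjusted p = 0.0115), with a replicate block over all groups (0.0443) and without 3 doubtful libraries (0.0161), which are those rich in Rn45s and control replicate 2 of day 2. In control bodies Wnt3 was added as a call, for 4 in all, with DESeq2 (0.0436), with the replicate block (0.0317) and without both libraries rich in Rn45s (0.0216) and without the 3 doubtful libraries (0.0192). Directions that turned all belong to differences that were not called. Without both libraries rich in Rn45s the log2 change of Snai1 over time in control bodies was 0.17, and without the 3 doubtful libraries it was 0.022, with Snai1 at -0.063 and Fgf8 at 0.058 between genotypes on day 2. With 1 library left out, the ranges were -0.26 to 0.11 (Wnt3), -0.49 to 0.058 (Mixl1) and -0.0093 to 0.35 (Snai1) between genotypes on day 2, and -0.29 to 0.13 (Wnt3) on day 2.5. They were -0.41 to 0.010 (Mixl1), -0.27 to 0.046 (Eomes) and -0.68 to 0.049 (Gsc) over time in Trim33-deficient bodies, -0.20 to 0.22 (Mixl1) and -0.16 to 0.20 (Snai1) in control bodies, and -0.25 to 0.17 (Wnt3) and -0.46 to 0.082 (Mixl1) for the interaction. The cause of these changes was not tested. Collection was in independent pairs per the labels, which give no link from a pair to a replicate number, and the numbers did not meet the limit set for pairing (every correlation over 0.1): deviations of same-numbered libraries correlated at -0.0788 to 0.182 in 3 of the 4 sets and at 0.032 to 0.451 between days in control bodies, and of 6 libraries 3, 0, 3 and 4 correlated best with their own number (genotypes on day 2 and day 2.5, days in Trim33-deficient and control bodies). With the replicate block over all groups the interaction still had 3 calls. A block of pairs within a day was not run for the changes over time, since it carries the day. Depth limits Gsc, Evx1, Lhx1 and Mesp1.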

Other observations

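Marker lists of other cell types gave these values on day 2.5, when 42.8% of all tested genes were called (22% rose and 20.7% fell). Of 6 tested neuroectoderm genes 3 rose. Of these, En1 passed the filter for low genes through Trim33-deficient libraries only. Zic1, which also rose, reached the filter level in 1 control library of day 2 and in 0 of day 2.5. The summed level of the list was 117 to 132 CPM in Trim33-deficient libraries and 132 to 149 CPM in control libraries. Hes5 and Pax3 were under 1 CPM in every library. Most of that sum was Nes, which was not called, at 97.2 ± 8.60 CPM in Trim33-deficient and 117 ± 9.09 CPM in control bodies. Of 5 tested fibroblast genes 1 rose and 3 fell, at 23.1 to 25.8 CPM in Trim33-deficient against 35.2 to 44.4 CPM in control libraries, and Postn, Lum and Twist2 were under 1 CPM in every library. Most of the gap in these sums was Thy1, at 7.42 ± 1.49 CPM in Trim33-deficient and 21.3 ± 3.83 CPM in control bodies. The gene that rose was Col3a1, at 2.56 ± 0.344 CPM in Trim33-deficient and 1.18 ± 0.465 CPM in control bodies. Without control replicate 2 of day 2.5, 2 fibroblast genes rose. Of the 6 pluripotency genes 1 rose (Sox2, log2 0.34 by edgeR, adjusted p = 0.000291) and 2 fell. Those that fell were Nanog (-1.26, adjusted p = 7.6e-05) and Lin28a (-0.19, adjusted p = 0.0243). In this list 1 gene fell on leaving out any of 3 day 2.5 libraries (Trim33-deficient replicates 1 and 2 and control replicate 3). These counts without single libraries were added after seeing the data.

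With no filter for low genes, the fitted log2 differences on day 2.5 were 1.37 ± 0.80 for Lhx1 (edgeR adjusted p = 0.218) and 0.82 ± 1.29 for Mesp1 (0.686), and none of the 3 untested streak genes passed on either day. On day 2 the same fit gave -0.12 for Evx1 (adjusted p = 0.981) and -1.44 ± 1.06 for Mesp1 (0.521).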
